A study of Mus musculus with 12 samples.

Results

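The comparison described here set all 6 hearts of mice operated by transverse aortic constriction (TAC) against all 6 hearts of sham-operated mice, with WT and F3-KO animals pooled and genotype kept as a term of the model. Members were chosen by surgery label alone, so 12 of the 12 hearts of the series entered, and 14094 of 19308 genes passed the filter on low counts and were tested. The 4 groups held 3 hearts each: sham-operated WT, TAC-operated WT, sham-operated F3-KO and TAC-operated F3-KO. All mice were of strain C57BL/6, were operated at 8 weeks of age and gave their hearts 1 week after surgery. F3-KO mice had been made as a global *Fabp3* knockout with CRISPR-Cas9, and the sham-operated F3-KO hearts carried the same deletion as the TAC-operated ones. RNA came from heart tissue as a whole, in which fewer cells of a type and less RNA per cell cannot be told apart.

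TAC narrows the aortic arch, so that the left ventricle has to pump against a raised pressure. Heart muscle cells answer such a load by growing and by turning on genes of the fetal heart, among them the natriuretic peptides, skeletal muscle actin and proteins that sense stretch at the sarcomere. Fibroblasts meanwhile divide and lay down matrix, and macrophages gather in the tissue. *Fabp3* encodes the fatty acid binding protein of heart muscle, which carries fatty acids through the cytosol.

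Libraries held 10424334 to 14372011 estimated counts, so that 3 counts, the floor used here, equalled 0.209 to 0.288 CPM, the unit of counts scaled to a common library total. *Fabp3* stood at 2117 to 3064 CPM in the 6 WT hearts and at 1002 to 1143 CPM in the 6 F3-KO hearts, so its transcript was lower but still counted in the knockout. Whether the counted reads cover the deleted part is not known. Markers of heart muscle cells were abundant in every library, with 10 genes summing to 73566 to 114607 CPM. Pairs of hearts of 1 group differed by more than sampling noise, with a chi-square of at least 9.95 per degree of freedom.

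The F3-KO TAC hearts numbered 2 and 3 stood apart from the other 10. In these hearts 5 hepatocyte markers summed to 75.8 and 117 CPM, whereas the other 10 hearts held 0.245 to 0.885 CPM. *Alb*, the serum albumin gene of the liver, alone reached 58.9 and 86.4 CPM. Conversely, 4 lung epithelium markers summed to 0.0696 and 0.557 CPM in the same hearts and to 26.1 to 39.6 CPM in each of the others. *Scgb1a1*, the secretoglobin of airway club cells, was at 0 in both and at 16.1 to 25.5 CPM elsewhere. Over the whole table, 50 genes exceeded 1 CPM in both hearts and 5 times the highest of the other 10, and 4 genes showed the opposite. Of the former only 1 passed the filter on low counts, none of either kind was called, and the 50 genes took 0.0211% and 0.0322% of the counts of these hearts. Both hearts carried the labels of 1 group, and the part of this difference in the results below was not tested; counts without these hearts are given further on.

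**Figure D1:**
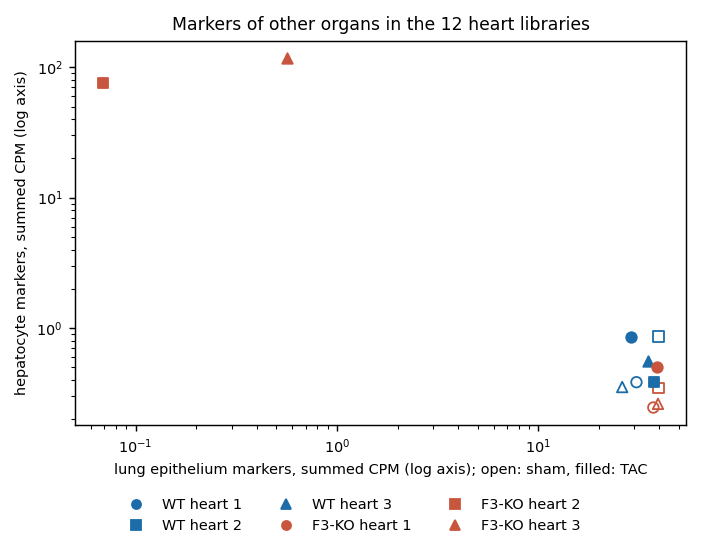
Summed CPM of 5 hepatocyte markers against 4 lung epithelium markers in each of the 12 libraries, both on log axes, with open symbols for sham and filled symbols for TAC. The F3-KO TAC hearts numbered 2 and 3 sit at 75.8 and 117 CPM of hepatocyte markers and below 1 CPM of lung markers, apart from the other 10.

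A small set of genes passed the test for a surgery effect, which is not the number of genes that surgery changed. Of 14094 genes, 11 were called by the quasi-likelihood test of edgeR at a Benjamini-Hochberg adjusted p under 0.05, which was 0.078% of the genes tested. Among them 9 were higher and 2 lower after TAC. The higher genes were *Nppb*, of the stretch and natriuretic peptide list, *Acta1* and *Mybpc2*, of the sarcomere list, and *Ankrd23*, *Tnfrsf12a*, *Tlr13*, *Clec4n*, *Adamts8* and *Lman1l*. The lower genes were *Rgs2* and *Ctnnal1*. The 6 TAC and 6 sham hearts did not overlap in 10 of the 11. Over all tested genes, 78 had every TAC heart above every sham heart, or 0.553%, and 40 had every TAC heart below, or 0.284%. Before adjustment, 1609 genes were higher after TAC at p of at most 0.05, 11.4% of those tested, and 908 were lower, 6.44%, against which the gene lists below are read.

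*Nppb* encodes brain natriuretic peptide, a hormone that the ventricle releases under load. Its level in sham hearts ran from 95.05 through a median of 163 to 311 CPM, and in TAC hearts from 411 through 608 to 776 CPM. Every TAC heart lay above every sham heart, and the highest sham value belonged to an F3-KO heart. The log2 fold change was 1.86 (SE 0.22, n = 6 against 6, edgeR adjusted p = 0.0137). *Acta1*, skeletal muscle alpha-actin, had the largest change of the called genes. It stood at 44.9 to 753 CPM in sham hearts (median 177) and at 762 to 3566 CPM in TAC hearts (median 3123), so that the groups lay close together without overlapping. Its 2 lowest TAC values were those of WT hearts numbered 2 and 3, at 762 and 800.0 CPM, while the other 4 held 3044 to 3566 CPM. The log2 fold change was 3.36 (SE 0.48, edgeR adjusted p = 0.0234).

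*Mybpc2*, the fast skeletal isoform of myosin binding protein C, rose from 15.7 to 27.7 CPM in sham hearts (median 20.5) to 36.2 to 132 CPM in TAC hearts (median 85.0), a log2 fold change of 1.96 (SE 0.25, edgeR adjusted p = 0.0137). All 6 TAC hearts were above the highest sham heart, and WT heart 2 was the lowest of them. *Ankrd23* belongs to the muscle ankyrin repeat proteins that bind titin, the elastic spring of the sarcomere. It rose from 219 to 350.1 CPM (median 274) to 463 to 901 CPM (median 729), a log2 fold change of 1.32 (SE 0.17, edgeR adjusted p = 0.0137). *Tnfrsf12a* encodes Fn14, the receptor of the cytokine TWEAK. Its sham hearts held 28.7 to 53.3 CPM (median 36.8) and its TAC hearts 68.5 to 91.5 CPM (median 84.0), a log2 fold change of 1.10 (SE 0.14, edgeR adjusted p = 0.0137) with an SD among TAC hearts of 8.62 CPM. *Acta1* and *Mybpc2* are also genes of skeletal muscle, whose 7 markers summed to 1.83 to 5.63 CPM in sham hearts and 1.97 to 6.08 CPM in TAC hearts, with 1 of 3 tested markers higher at p of at most 0.05.

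**Figure D2:**
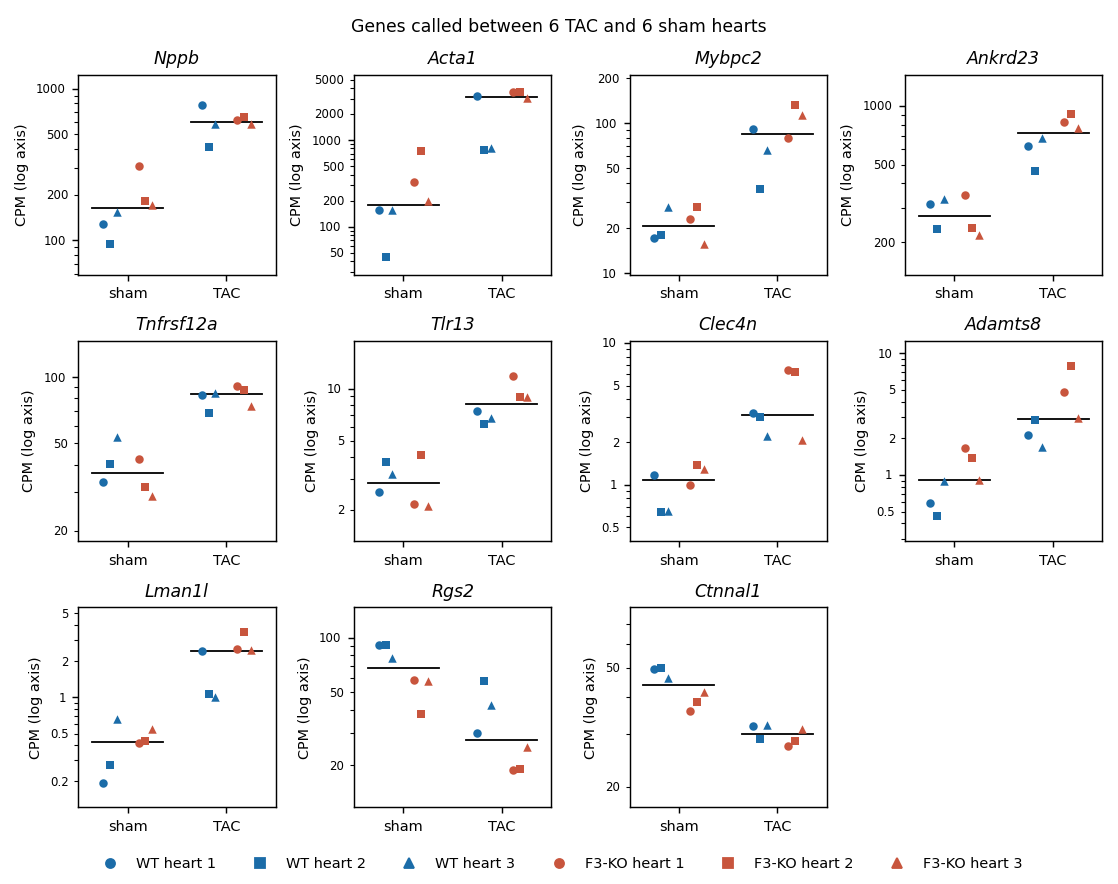
CPM of the 11 called genes in each of the 12 hearts on log axes, sham on the left and TAC on the right, with the bar at the median of 6 hearts. In *Nppb* the sham hearts reach 311 CPM and the TAC hearts start at 411 CPM, and only in *Rgs2* do the 2 surgeries overlap.

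Promoters of 3 called genes are shown because they rose together and because a shared short motif can be read in them. *Nppb* was taken as the called gene of the stretch and natriuretic peptide list, and *Acta1* and *Mybpc2* were added after their values were seen. Each sequence runs 5′ to 3′ on the gene's strand over 250 bases before and 50 bases after the transcription start, from RefSeq on GRCm38.p6. Capitals mark matches, on either strand, to CATTCC, the M-CAT element read by TEAD factors, and in *Nppb* also to the GATA motif TGATAA. A search was also made for TGANTCA, which AP-1 reads, and for the MEF2 motif TATTTATA. Both strands were read for each of the 4 motifs. *Nppb* lies at chr4:147985650-147985949 on the + strand, *Acta1* at chr8:123894726-123895025 on the - strand and *Mybpc2* at chr7:44524620-44524919 on the - strand.
Nppb: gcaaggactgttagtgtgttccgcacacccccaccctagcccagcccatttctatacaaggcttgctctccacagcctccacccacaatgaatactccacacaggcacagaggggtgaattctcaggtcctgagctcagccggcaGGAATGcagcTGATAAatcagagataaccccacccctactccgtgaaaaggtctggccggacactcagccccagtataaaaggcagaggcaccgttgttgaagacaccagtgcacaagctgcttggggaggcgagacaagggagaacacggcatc
Acta1: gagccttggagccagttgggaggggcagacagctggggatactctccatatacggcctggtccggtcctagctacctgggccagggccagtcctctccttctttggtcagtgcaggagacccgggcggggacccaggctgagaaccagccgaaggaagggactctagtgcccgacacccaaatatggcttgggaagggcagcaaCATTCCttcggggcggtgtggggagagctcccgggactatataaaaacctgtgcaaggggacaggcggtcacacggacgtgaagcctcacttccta
Mybpc2: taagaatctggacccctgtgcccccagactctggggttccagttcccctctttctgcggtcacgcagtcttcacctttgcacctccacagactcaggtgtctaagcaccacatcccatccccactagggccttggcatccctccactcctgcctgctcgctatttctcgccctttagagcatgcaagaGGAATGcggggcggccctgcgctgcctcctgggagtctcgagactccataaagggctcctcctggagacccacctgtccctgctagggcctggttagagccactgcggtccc

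In *Nppb* the CATTCC match, read on the reverse strand, began 105 bases before the start and the TGATAA match 95 bases before it. The CATTCC match began 46 bases before the start in *Acta1* and, on the reverse strand, 62 bases before it in *Mybpc2*. Of the 9 called genes with an entry in the promoter table, 5 of the 7 higher genes (*Nppb*, *Acta1*, *Mybpc2*, *Ankrd23* and *Lman1l*) and 0 of the 2 lower genes held CATTCC in this window. *Ankrd23* had 2 entries, with the match 120 bases before the start in one and 37 bases after it in the other. Among all 32851 promoter entries, CATTCC was found in 14.7% and TGATAA in 9.05%. These shares count entries, whereas the gene counts above took a match in any entry of a gene. TGANTCA was found in 7.81% and TATTTATA in 1.7%. No test was made of these shares, and a match describes letters and not binding. *Adamts8* and *Clec4n* had no entry.

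The called genes *Tlr13* and *Clec4n* encode receptors of innate immunity and were at low levels but separated the surgeries completely. *Tlr13*, an endosomal receptor for bacterial ribosomal RNA, was at 2.11 to 4.15 CPM in sham hearts (median 2.86) and 6.25 to 11.8 CPM in TAC hearts (median 8.18), a log2 fold change of 1.46 (SE 0.21, edgeR adjusted p = 0.0246). *Clec4n* encodes Dectin-2, a lectin of macrophages and dendritic cells that binds fungal sugars. Its level was 0.642 to 1.38 CPM in sham hearts (median 1.08) and 2.06 to 6.45 CPM in TAC hearts (median 3.10), a log2 fold change of 1.89 (SE 0.31, edgeR adjusted p = 0.0438). Macrophage markers moved with them: 9 of 14 were higher at p of at most 0.05, none was lower or at 0 in all hearts, and their sum was 374 to 830.1 CPM in sham hearts and 658 to 1285 CPM in TAC hearts. None of the 14 was called, the closest being *C1qb*, a subunit of complement C1q, at a log2 fold change of 0.84 (SE 0.15, edgeR adjusted p = 0.0568). *Ccl8* and *Ccl12*, chemokines that attract monocytes, had no overlap between surgeries and log2 fold changes of 1.79 and 1.71 (SE 0.31 and 0.32), with edgeR adjusted p of 0.0536 and 0.0627. Other myeloid genes with no overlap, picked after their values were seen, were *Cybb*, the NADPH oxidase subunit of phagocytes, and *Itgam*, the CD11b integrin, at log2 fold changes of 0.82 and 1.07 (SE 0.16 and 0.22). Of 3 tested monocyte markers 2 were higher and 0 lower at p of at most 0.05, with a median log2 fold change of 1.17. Of 7 tested neutrophil markers 0 were higher and 1 lower, with a median of -0.86. Over all genes, 11.4% were higher and 6.44% lower at that level. The part of macrophage number in the levels of *Tlr13* and *Clec4n* was not tested.

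*Adamts8*, a secreted metalloprotease with thrombospondin motifs, was at 0.458 to 1.66 CPM in sham hearts (median 0.908) and 1.70 to 7.91 CPM in TAC hearts (median 2.89). The highest sham and lowest TAC heart were almost level, and the log2 fold change was 1.87 (SE 0.30, edgeR adjusted p = 0.0430). *Lman1l*, a relative of the lectin that carries glycoproteins out of the endoplasmic reticulum, had a log2 fold change of 2.29 (SE 0.37, edgeR adjusted p = 0.0430). Its sham hearts held 0.194 to 0.655 CPM (median 0.424), a few reads above or below the floor of 3 counts, and its TAC hearts 1.00 to 3.51 CPM (median 2.45).

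*Rgs2* shuts off signalling through Gq-coupled receptors such as those of angiotensin and endothelin, and it fell after TAC. Sham hearts held 38.1 to 91.6 CPM (median 68.2) and TAC hearts 18.7 to 57.5 CPM (median 27.6), a log2 fold change of -1.14 (SE 0.16, edgeR adjusted p = 0.0234). The surgeries overlapped across genotypes, since the WT TAC hearts, at 29.97 to 57.5 CPM, reached the level of the F3-KO sham hearts, at 38.1 to 58.8 CPM. Within each genotype every TAC heart was below every sham heart. *Ctnnal1*, alpha-catulin, had the smallest change of the called genes and a small spread. It fell from 35.8 to 49.9 CPM (median 43.8) to 27.3 to 32.2 CPM (median 30.1), a log2 fold change of -0.53 (SE 0.08, edgeR adjusted p = 0.0287).

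Collagen genes had the highest share of higher members of the 25 gene lists. All 18 tested collagen genes were higher at an unadjusted p of at most 0.05 (100% against 11.4% of all genes), with a median log2 fold change of 1.33 against 0.0046 over all genes, and 0 were called. Of 32 matricellular and matrix glycoprotein genes 27 were higher at that level, with a median of 1.39 and 0 called. Of 21 matrix protease and inhibitor genes 11 were higher and 1, *Mmp9*, was lower, with a median of 0.64 and 0 called. Of 22 TGF-beta and activin genes 11 were higher, with a median of 0.48 and 0 called. *Col1a1*, a chain of type I collagen, was at 75.6 to 190 CPM in sham hearts (median 90.7) and 75.2 to 1529 CPM in TAC hearts (median 368), a log2 fold change of 2.10 (SE 0.55, edgeR adjusted p = 0.0966). *Postn*, periostin, which activated fibroblasts secrete, was at 16.2 to 63.7 CPM and 24.4 to 1221 CPM, a log2 fold change of 3.20 (SE 0.75, edgeR adjusted p = 0.0913). *Cilp*, a cartilage matrix protein also made by cardiac fibroblasts, had the smallest p of the matrix genes, with a log2 fold change of 3.04 (SE 0.58, edgeR adjusted p = 0.0627).

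The spread of the matrix genes lay among the TAC hearts. The collagen level, as the mean log2 CPM of the list with the sham mean at 0, was 1.54 and 0.65 in WT TAC hearts 1 and 2 and 2.23 and 2.94 in F3-KO TAC hearts 1 and 2. In the TAC hearts numbered 3 it was -0.32 (WT) and -0.035 (F3-KO), within the sham range of -0.43 to 0.64. *Postn* likewise was at 24.4 and 40.7 CPM in the hearts numbered 3, below the highest sham heart, although *Nppb* in the same hearts was 589 and 584 CPM. Markers of activated fibroblasts moved with the list, 8 of 8 being higher at p of at most 0.05, with a sum of 37.6 to 109 CPM in sham hearts and 67.3 to 2320 CPM in TAC hearts. The matricellular list shares 5 of these markers and the TGF-beta list 1, which count in both. General fibroblast markers, 4 of 9 higher, summed to 1120 to 2024 and 1218 to 1853 CPM. The part of fibroblast number in the matrix genes was not tested.

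Cell cycle genes followed the same hearts. Of 36 tested, 28 were higher at p of at most 0.05, 0 lower and 0 called, and their median log2 fold change of 2.45 was the highest of the 25 lists. *Ccna2*, the cyclin of S phase and early mitosis, was at 0.825 to 1.74 CPM in sham hearts (median 1.19) and at 0.700 to 43.3 CPM in TAC hearts (median 10.7), a log2 fold change of 3.57 (SE 0.83, edgeR adjusted p = 0.0913). The 4 TAC hearts numbered 1 and 2 held 5.46 to 43.3 CPM, while the hearts numbered 3, at 0.700 and 0.990 CPM, lay below and among the sham hearts. The list level was 2.36, 1.03, 3.32 and 2.15 in the former and -0.44 and -0.48 in the latter.

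Interferon response genes were all on the higher side, 19 of 19, with 15 at p of at most 0.05, a median log2 fold change of 1.12 and 0 called. Their order among the hearts was another one. The list level was 1.84 and 1.68 in F3-KO TAC hearts 1 and 3, 1.15 and 0.81 in WT TAC hearts 1 and 2, 0.32 in F3-KO TAC heart 2 and -0.11 in WT TAC heart 3. *Ifit2*, an antiviral protein that interferon induces, was at 19.5 to 27.4 CPM in sham hearts and 26.3 to 78.2 CPM in TAC hearts, a log2 fold change of 1.08 (SE 0.20, edgeR adjusted p = 0.0627). Chemokine and cytokine genes had 7 of 21 higher at p of at most 0.05, 0 lower and a median of 0.38. In the same lists DESeq2 called 9 of 18 collagen, 19 of 32 matricellular, 9 of 21 protease and inhibitor, 3 of 22 TGF-beta, 23 of 36 cell cycle, 13 of 19 interferon and 4 of 21 chemokine genes, all of them higher. Over all 14712 genes with an adjusted p, DESeq2 called 513 higher and 177 lower.

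**Figure D3:**
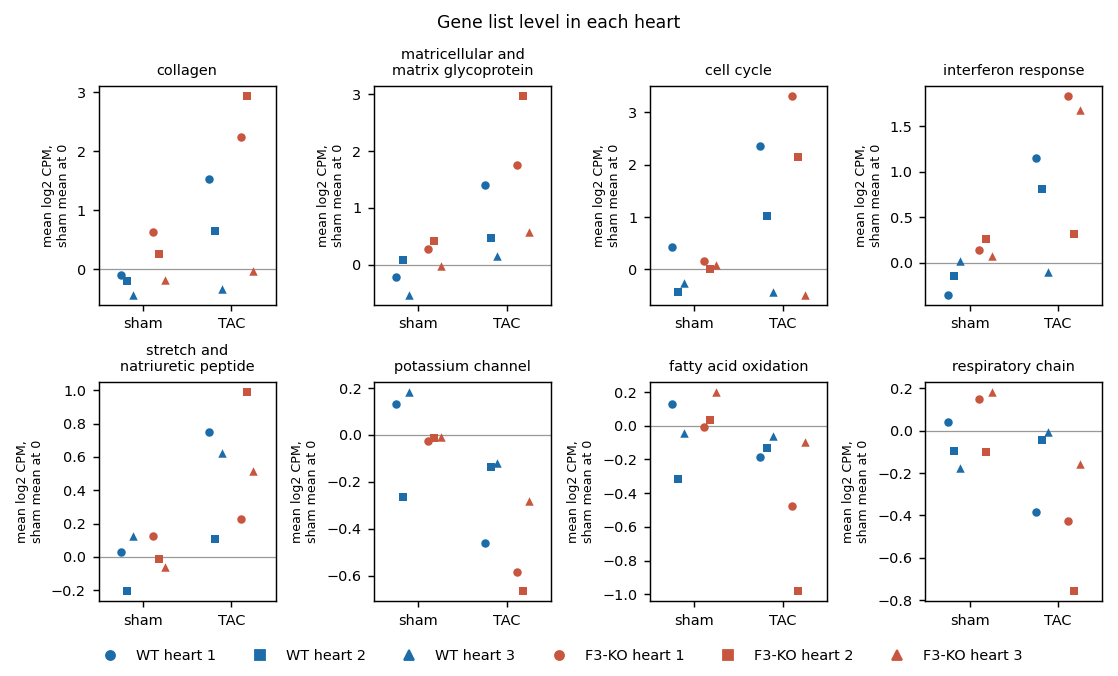
Level of 8 gene lists in each heart, as the mean log2 CPM of the list with the mean of the 6 sham hearts at 0. For collagen and cell cycle genes the TAC hearts numbered 3 (triangles) lie at -0.035 to -0.48, among or below the sham hearts, whereas for the stretch and natriuretic peptide list they lie at 0.62 and 0.51.

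Of the 13 stretch and natriuretic peptide genes, 6 were higher at p of at most 0.05, 0 were lower and *Nppb* alone was called, with a median of 0.23. *Nppa*, atrial natriuretic peptide, ran from 37.1 to 339 CPM in sham hearts (median 162) and from 143 to 3841 CPM in TAC hearts (median 817). WT TAC heart 2 and F3-KO TAC heart 1, at 143 and 153 CPM, stayed within the sham range, and the log2 fold change of 2.70 (SE 0.69) did not pass (edgeR adjusted p = 0.0947). Atrial markers summed to 1.59 to 24.0 CPM in sham hearts and 1.99 to 26.9 CPM in TAC hearts, the highest being F3-KO TAC heart 2, which also had the highest *Nppa*. F3-KO sham heart 2 had nearly the same atrial sum, 24.0 CPM, with *Nppa* at 145 CPM, and the part of atrial tissue in *Nppa* was not tested. *Ankrd1*, a relative of *Ankrd23* that binds titin, was above the highest sham heart in 5 of 6 TAC hearts, with a log2 fold change of 1.54 (SE 0.31, edgeR adjusted p = 0.0785). Of the 26 sarcomere and fetal contractile genes, 8 were higher and 2 lower at p of at most 0.05, and *Acta1* and *Mybpc2* were called.

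The myosin heavy chains did not pass. *Myh6*, the adult alpha chain, was at 16252 to 34460 CPM in sham hearts and 14448 to 34421 CPM in TAC hearts, a log2 fold change of -0.49 (SE 0.25, edgeR adjusted p = 0.320). *Myh7*, the fetal beta chain, ranged from 290 to 9179 CPM in sham hearts and from 174 to 23126 CPM in TAC hearts, a log2 fold change of 2.72 (SE 1.22, edgeR adjusted p = 0.268). These chains are near-identical neighbours whose reads the counting could have split, so both values are uncertain. Fitted alone, WT and F3-KO hearts gave *Myh6* log2 fold changes of -0.01 and -0.96 (SE 0.33 and 0.25). For *Myh7* they gave 1.00 and 4.43 (SE 1.13 and 1.37). Neither gene passed the interaction test (edgeR adjusted p = 0.954 for both). The TAC hearts numbered 3 held the highest *Myh7*. WT sham heart 2 held the highest *Myh7* and lowest *Myh6* of the sham hearts. *Fabp3* itself differed by a log2 fold change of 0.12 (SE 0.11, edgeR adjusted p = 0.584) between surgeries.

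Of the 19 potassium channel genes 15 had a log2 fold change below 0, and 11 were lower at p of at most 0.05 (57.9% against 6.44% of all genes), 0 higher and 0 called, with a median log2 fold change of -0.31. *Kcnj2*, the inward rectifier that sets the resting potential, was at 35.1 to 103 CPM in sham hearts and 20.7 to 39.2 CPM in TAC hearts, a log2 fold change of -0.81 (SE 0.16, edgeR adjusted p = 0.0785). *Kcnip2*, the subunit of the transient outward current, was at 153 to 363 and 137 to 279 CPM, with a log2 fold change of -0.69 (SE 0.23, edgeR adjusted p = 0.154). Calcium handling genes had 3 of 18 lower and 0 higher, with 9 genes on either side of 0. Among them *Atp2a2*, the SERCA pump that returns calcium to the sarcoplasmic reticulum, had a log2 fold change of -0.51 (SE 0.18, edgeR adjusted p = 0.169). Of 26 hypertrophic signalling genes 2 were higher and 6 lower, *Rgs2* being called, and of 17 circadian clock genes 5 were lower and 0 higher.

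All 45 respiratory chain and ATP synthase genes had a log2 fold change below 0, between -1.22 and -0.095, with a median of -0.26. Only 3 were lower at p of at most 0.05, or 6.67% against 6.44% of all genes, whereas DESeq2 put 15 at that level against 5.65% of all genes. For 43 of the 45 the 95% confidence interval lay within 1 log2 unit of 0. Of 26 fatty acid oxidation genes 24 were below 0 and 7 were lower at p of at most 0.05, with a median of -0.30. *Eci1*, an isomerase of the oxidation of unsaturated fatty acids, was at 318 to 411 CPM in sham hearts and 139 to 320.1 CPM in TAC hearts, a log2 fold change of -0.50 (SE 0.18, edgeR adjusted p = 0.179). Of 22 ketone body and branched-chain amino acid genes 8 were lower and 1 was higher, with a median of -0.27. The higher gene was *Bdh1*, the first enzyme of ketone body oxidation, at 83.7 to 140.3 CPM in sham hearts and 110 to 232 CPM in TAC hearts, a log2 fold change of 0.68 (SE 0.17, edgeR adjusted p = 0.0929). Pyruvate entry and TCA cycle genes had 1 of 31 lower, PPAR, PGC-1 and ERR regulators 3 of 16, and glycolysis and glycogen genes 5 of 26 lower and 2 higher. None of these metabolic lists held a gene called by edgeR, and DESeq2 called 0 respiratory chain, 0 fatty acid oxidation, 0 TCA cycle, 1 regulator, 3 glycolysis and 2 ketone and amino acid genes. DESeq2 also called 6 of the 19 potassium channel genes, all lower. Over all 14712 genes it called 177 lower and 513 higher.

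Fatty acid uptake, storage and lipolysis genes had 1 of 18 higher and 2 lower at p of at most 0.05, and creatine kinase and adenine nucleotide transfer genes 0 and 1 of 10. Genes of the ATF4 response to amino acid stress had 4 of 20 higher and 3 lower, heat shock and chaperone genes 2 and 2 of 18, immediate early genes 2 and 5 of 20, and angiogenic factor and receptor genes 0 and 1 of 17. Their medians lay between -0.16 and 0.13, with members on both sides of 0 in each list. Of the marker lists not given above, none had more than 2 members at p of at most 0.05 in either direction, and none held a called gene. These lists were short: 2 of the 5 pericyte markers were lower and 0 higher, where 6.44% of all genes were lower. Red blood cell markers, the globins among them, ran from 656 to 4511 CPM in sham hearts and from 299 to 4366 CPM in TAC hearts.

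**Figure D4:**
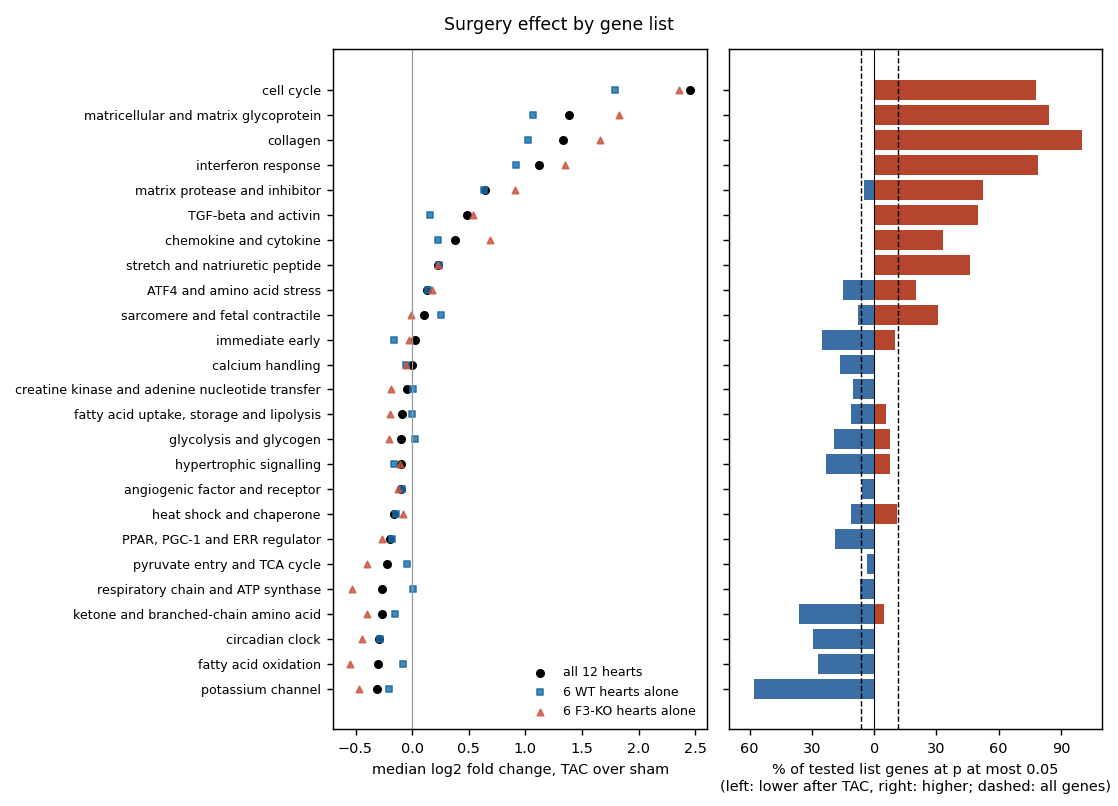
Median log2 fold change of each of the 25 gene lists (left; all 12 hearts, 6 WT alone and 6 F3-KO alone) and the percentage of its tested genes at p of at most 0.05 in each direction (right), with dashed lines at 11.4% and 6.44%, the shares over all genes. Collagen genes reach 100% on the higher side and potassium channel genes 57.9% on the lower side.

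The model gave both genotypes 1 surgery effect, which was examined by fitting each genotype on its own. With 3 hearts against 3, edgeR called 0 of 13402 genes in WT hearts and 1 of 13648 in F3-KO hearts, and 707 and 2568 genes reached p of at most 0.05 before adjustment. Without F3-KO TAC heart 3 the F3-KO count was 2119. Across the 13267 genes in both fits, which share no heart, the 2 sets of log2 fold changes had a Pearson r of 0.50 and a Spearman rho of 0.40, genes not being independent replicates. Of the 700 genes at p of at most 0.05 in WT, 42.3% were at that level in F3-KO in the same direction. These were 11.9% of the F3-KO genes at that level, which numbered 2493 of the 13267. The interaction test of edgeR called 0 of 14094 genes, 632 having p of at most 0.05 before adjustment, and DESeq2 called 6. Without F3-KO TAC heart 1 edgeR called 4. Over the 13267 genes, 63.4% had the same sign in both genotypes. Each of the 11 called genes moved the same way in both. They were picked from these same hearts by a model with 1 surgery effect, which favours such agreement, so it tests nothing. *Nppb* changed by 2.24 (SE 0.28) in WT and 1.48 (SE 0.24) in F3-KO, and *Ankrd23* by 1.01 (SE 0.21) and 1.63 (SE 0.21) on the log2 scale. The median of the respiratory chain list was 0.01 in WT hearts and -0.53 in F3-KO hearts, and 0 and 33 of its 45 genes were lower at p of at most 0.05. Fatty acid oxidation genes had medians of -0.08 and -0.55, with 0 and 13 of 26 lower. Over all genes, 1.93% were lower at that level in WT hearts alone and 7.82% in F3-KO hearts alone. No member of either list passed the interaction test, so the genotypes were not shown to differ there.

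Taking 6 hearts against 6 lowered the median SE of a log2 fold change to 0.145, from 0.204 in WT and 0.178 in F3-KO hearts alone. The additive model left 9 residual degrees of freedom, to which the shared prior added 3.96. The last gene called had an unadjusted p of 3.42e-05, which at the median SE needed a log2 fold change of 0.89. By its own SE, 57.8% of genes would have reached that p with an estimated log2 fold change of 1 and 85.3% with an estimate of 2. A true change of that size gives estimates on either side of it, so these shares are not power. The 95% interval lay within 1 log2 unit of 0 for 80.5% of genes and within 0.5 for 51.0%. Of 639 genes with an estimated change of at least 1 log2 unit in either direction, 521 had an unadjusted p of at most 0.05 and 10 were called. An exact two-sided permutation test of 1 gene can give no p below 0.00216 with 6 against 6, 0.005 where hearts are exchanged within genotype only, or 0.1 with 3 against 3.

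Single hearts decided how many genes were called. Leaving out WT sham heart 1 gave 0 calls by edgeR, where 2426 genes had p of at most 0.05 before adjustment, and leaving out F3-KO TAC heart 3 gave 363, and the other hearts lay between. Counts rose over 1.5 times without WT sham heart 2 (178), WT TAC hearts 2 and 3 (46 and 91) and F3-KO TAC heart 2 (18), and fell by as much without each of the remaining hearts (4 to 7). *Nppb*, *Mybpc2*, *Ankrd23* and *Tnfrsf12a* stayed called in 11 of the 12 runs, and in the run without WT sham heart 1 each had an edgeR adjusted p of 0.0542. *Acta1* and *Rgs2* stayed called in 7, *Tlr13* and *Ctnnal1* in 6, *Lman1l* in 5, and *Adamts8* and *Clec4n* in 4. Without both TAC hearts numbered 3, a choice made after seeing the data, 1125 of 14320 genes were called, 844 higher and 281 lower, including all 11. All 18 collagen genes and 28 of the 36 cell cycle genes were among them. The hearts left out were those with these lists at or below sham level, so the list counts follow from the choice. Without F3-KO TAC hearts 2 and 3, the hearts with liver transcripts, 50 genes were called, among them 10 of the 11, and *Lman1l* was lost (edgeR adjusted p = 0.0592). DESeq2 on all 12 hearts called 690 genes, 513 higher and 177 lower, including all 11.

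**Figure D5:**
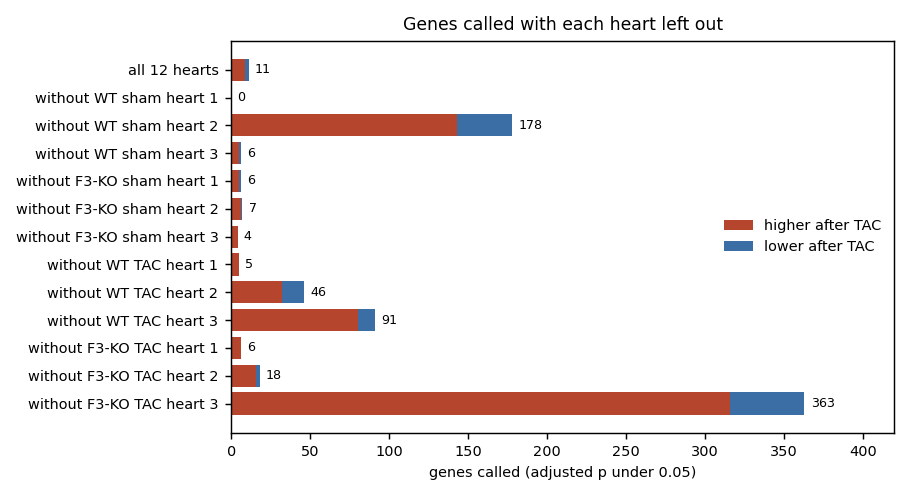
Number of genes called at an adjusted p under 0.05 with all 12 hearts and with each heart left out, split by direction. Counts run from 0 without WT sham heart 1 to 363 without F3-KO TAC heart 3, beside 11 with all hearts.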

How the data were processed

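RNA sequencing of 12 mouse hearts, 3 per group, was analysed from the joint gene table. The authors deposited estimated counts per gene, of which 40.6% were not whole and which were not normalized. Per the labels, HISAT2 2.0.4, STAR 2.3.0 and DESeq2 were used and the builds mm8 and mm9 are listed without a role. Reads were first filtered with SOAPnuke for adapters and low quality. No counting tool is given in the sources used here. Shared reads between similar genes could therefore move counts. The own table of WT sham replicate 2 breaks off and was not used, and 0 sample columns were left unassigned.

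Counts were rounded to whole numbers. Genes were kept by filterByExpr on the 4 groups (minimum count 10), which removed 5214 genes holding 0.0775% of counts, scaled by TMM (factors 0.931 to 1.09) and fitted with edgeR 4.0.16 in R 4.3.3 by genotype plus surgery. Alternatives used DESeq2 1.42.0, limma 3.58.1, other filters, scalings and models, and left out each heart. Single-gene CPM are TMM-scaled, marker sums are scaled by library total, and list levels used a prior count of 2. Depth limits precision at the floor of 3 counts, and floors cover counting error only. Each SE was taken from the test, as the absolute log2 fold change over the square root of its F statistic. The 95% intervals use that SE and include the spread between hearts. Scripts were tested on simulated data. Of the table's genes, 18225 matched RefSeq identifiers. No gene coordinates of the file's build are given. Protein sequences were not used here.

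Replicate numbers were not used as pairs. Of 6 same-number pairs within a genotype, 2 had deviations correlated above 0.1 (range -0.14 to 0.13). Of all 18 same-number pairs 4 did, the highest being the TAC hearts numbered 3 of both genotypes (0.36). The TAC hearts numbered 1 and 2 had 0.17 and 0.061. The highest value between different numbers was 0.20. Whether hearts of 1 number shared a handling step is not known. The series' design text calls the replicates biologically independent.

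The named genes were *Fabp3*, 14 hypertrophy and fibrosis genes, called genes without overlap and a mean of at least 1 CPM (up to 10 per direction), and per list up to 4 called members or the member with the smallest p. The members, the 25 gene lists and the 22 marker lists were chosen with earlier results of these data known. *Alb*, *Scgb1a1*, *C1qb*, *Ccl12*, *Cybb*, *Itgam*, *Kcnip2* and *Mmp9* lie outside that rule and were picked with their values in view.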

Additional observations from a re-analysis of the deposited data

Results flagged for a closer look

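In 14 of 140 groups of 6 hearts, the gap between 1 heart and the rest exceeded 0.625 of the group's range. Chance passes this cut in about 5% of groups only where values are normal and groups independent. Single-gene CPM were not logged and the groups share hearts and genes, so the flags are not set against that share. The F3-KO TAC heart 2 held 6 of these. It was the highest TAC heart for *Nppa* (3841 CPM, next 1114), *Spp1* (12.2 CPM, next 5.01), *Mmp2* (317 CPM, next 126), *Timp1* (41.7 CPM, next 15.5) and *Cilp* (360.5 CPM, next 115), and for the level of TGF-beta and activin genes (1.25, next 0.51 on the log2 scale). It is also one of the hearts with hepatocyte transcripts, whose part in these values was not tested.

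WT sham heart 2 had the lowest *Myh6* of the sham hearts, at 16252 CPM against 31157 to 34460 CPM in the others. F3-KO sham heart 1 had the highest sham *Col1a1* (190 CPM, next 118). F3-KO sham heart 3 had the highest sham *Eci1* (411 CPM, next 343) and the highest sham *Myc* (6.69 CPM, next 4.83). WT TAC heart 1 had the highest TAC *Myc* (16.2 CPM, next 9.48), the highest level of fatty acid uptake genes (0.31, next -0.096) and the highest level of hypertrophic signalling genes (0.018, next -0.12). WT sham heart 3 had the highest sham level of the last list (0.10, next 0.0043).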

How the results depend on the processing

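The direction of each called gene was the same under every alternative that tested it (a minimum of 10 counts in every library dropped 3 of them), while the number of calls was not. The alternatives refit the same hearts from which these genes were picked, which favours a kept direction. In place of 11 calls, DESeq2 gave 690, limma-trend 25, scaling by library total 6, no filter on low counts 27, a minimum of 10 counts in every library 27 and no genotype term 5. Without adjustment edgeR gave 2517 and DESeq2 2782. The fit with a replicate block beside genotype gave 20 (18 higher, 2 lower), 10 of the 11 among them. What the replicate numbers stand for is not known, so no weight rests on it. WT hearts alone gave 0 calls and F3-KO hearts alone 1. Chosen after seeing the data, an adjusted p under 0.1 gave 359 calls, leaving out both TAC hearts numbered 3 gave 1125, leaving out WT sham heart 2 as well gave 1617, and leaving out F3-KO TAC hearts 2 and 3 gave 50. Leaving out 1 heart at a time gave 0 to 363 calls for surgery, 0 to 4 for the interaction, 0 to 2 within WT and 0 to 2119 within F3-KO. For the interaction DESeq2 gave 6. *Fabp3* turned from 0.12 to -0.015 on the log2 scale in F3-KO hearts alone (edgeR adjusted p = 0.965). Of the other values for named genes, 967 kept direction and side of the threshold, 110 came to pass it and 87 ceased to, and 636 of 650 list medians moved by less than the spread between hearts. The cause of these changes was not tested. Depth limits genes near 3 counts, such as *Lman1l* in sham hearts.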

Other observations

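*Defb7*, a beta-defensin gene, was at 0 in all 6 sham hearts and in 3 of the 6 TAC hearts, and reached at most 3.79 CPM in the others (edgeR adjusted p = 0.0688). It was picked after its values were seen.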
